A study of Homo sapiens with 8 samples.

Results

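The comparison set TMD8 cells carrying a guide against KLHL14 beside cells carrying a control guide while both were exposed to ibrutinib. TMD8 is an established human lymphoma line, a diffuse large B cell lymphoma of the activated B cell type (ABC DLBCL). Genes were included where the deposited log2 value averaged at least 6 over all 8 libraries, without the row of total reads, which left 10921 of 25066 genes. All cells had been transduced with a lentivirus for Cas9 and stably expressed a guide RNA. The sgCTRL cells are labelled KLHL14(+/+) and the sgKLHL14 cells KLHL14(-/-). Both received Ibrutinib at 2 nM for 24 h, or DMSO for 24 h in the libraries used for reference, and each of the 4 groups had 2 libraries. The labels do not say whether the cells were clones or pools, nor whether replicates came from separate cultures. The p-values therefore measure the spread between these libraries, which may be technical.

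KLHL14 is a BTB-Kelch protein, an adaptor that brings substrates to a cullin-3 ubiquitin ligase, and it has been described as restraining B cell receptor signalling. Ibrutinib binds covalently to Bruton tyrosine kinase (BTK), which relays the B cell receptor signal through PLCG2 and a complex with BCL10 and MALT1 to the transcription factor NF-kB. Lymphomas of this kind depend on that chain, and NF-kB with IRF4 maintains their survival while plasma cell differentiation is held back. The question here is how the KLHL14 guide changed the transcriptome of cells in which BTK was inhibited.

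The ibrutinib libraries held 16520319 and 13331861 reads with sgCTRL and 16843591 and 12333876 with sgKLHL14, and the 8 libraries ran from 12333876 to 23467110. Across the included genes, libraries of the same group correlated at 0.996 to 0.997 and had a root mean square SD of 0.104 (sgCTRL, ibrutinib) and 0.129 (sgKLHL14, ibrutinib) on the log2 scale. All 10 B cell identity markers were among the included genes, and MS4A1 (CD20) gave most reads of that list, 25818 to 36680 per ibrutinib library. The 14 T cell markers summed to 69 to 90 reads with 7 to 9 of them at 0, 10 natural killer cell markers to 12 to 31 reads, and 9 erythroid and platelet markers to 9 to 15 reads. Myeloid markers summed to 667 and 814 reads with sgCTRL and 580 and 784 with sgKLHL14, of which CD68 gave 557 to 784. Epithelial and fibroblast markers summed to 4815 and 6024 reads with sgCTRL and 4027 and 5452 with sgKLHL14, mostly VIM, which lymphoid cells also express. In bulk RNA, fewer cells of a type and less RNA per cell cannot be told apart.

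Cells labelled sgKLHL14 had more KLHL14 mRNA than cells labelled sgCTRL. The log2 level of KLHL14 in ibrutinib was 12.30 and 12.30 with sgCTRL (3082 and 2494 reads) and 13.16 and 13.16 with sgKLHL14 (5615 and 4191 reads). The groups did not overlap, and the difference of 0.86 (SE 0.0598, 1.81-fold, limma-trend with Benjamini-Hochberg adjustment, adjusted p = 2.62e-08) compares with a median SE of 0.0855 over all included genes. In DMSO the levels were 12.07 and 12.05 with sgCTRL and 12.19 and 12.33 with sgKLHL14, a difference of 0.20 that did not pass (adjusted p = 0.107). A count per gene does not show small insertions or deletions at a guide's cut site, so the genotype is not checked by these levels, and directions below refer to the libraries labelled sgKLHL14. BTK, the drug's target, had log2 levels of 13.91 and 13.96 with sgCTRL and 14.01 and 14.05 with sgKLHL14. Its groups did not overlap either, yet its difference of 0.09 (SE 0.0571) did not pass the test (adjusted p = 0.56).

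Under ibrutinib 279 of the 10921 genes were called at an adjusted p under 0.05, 189 higher and 90 lower with sgKLHL14. Over all 12531 genes fitted the test called 2.38%, made up of 1.59% higher and 0.79% lower. Most differences were small. The median over the 10921 genes was -0.004 on the log2 scale, 5% lay below -0.247 and 5% above 0.259, and 48.4% were positive. Called genes had a median difference of 0.47 where higher and -0.44 where lower, and the smallest called difference was 0.22. A change of at least 1.5-fold was found for 71 of the genes called higher and 22 of those called lower, and of at least 2-fold for 15 and 6. Calls were spread over the range of levels: 84 had a mean level under 9.07 (median size 0.72), 91 lay between that and 10.74 (0.46) and 104 lay above (0.32). The mean level was 6.003 for the included gene nearest the limit and 5.9996 for the nearest excluded gene. Another 19 of the 1610 fitted genes below the limit were called. Counts depended on single libraries: 135 and 120 genes were called without sgCTRL ibrutinib replicate 1 or 2, and 158 and 174 without sgKLHL14 ibrutinib replicate 1 or 2. In what follows, a replicate named without its treatment is an ibrutinib library.

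**Figure D1:**
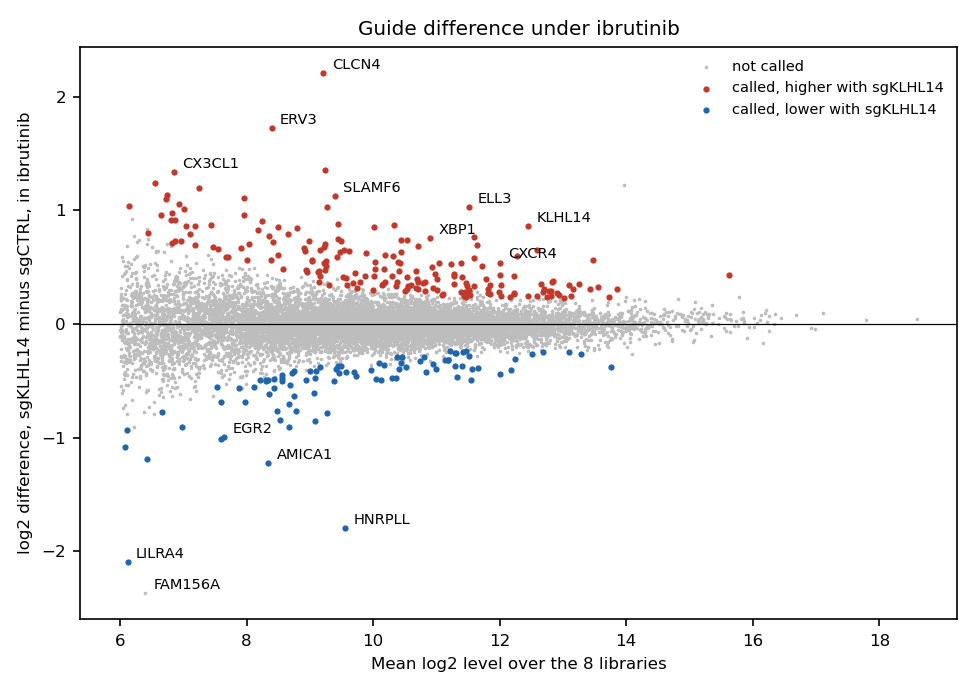
Each point is 1 of 10921 genes, with its mean log2 level over the 8 libraries (x axis) and the log2 difference between sgKLHL14 and sgCTRL in ibrutinib (y axis); red and blue points are the 189 genes called higher and the 90 called lower. CLCN4 and ERV3 lie highest and LILRA4 and HNRPLL lowest among the called genes, while FAM156A lies far from 0 without a call.

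FAM156A, chosen after its values were seen, is a case where 1 library made a large difference that did not pass. Its log2 levels in ibrutinib were 6.98 and 6.72 with sgCTRL and 6.83 and 2.13 with sgKLHL14 (difference -2.37, SE 0.790, adjusted p = 0.148). The other 3 ibrutinib libraries lay close together.

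The largest gain was that of CLCN4, which encodes an endosomal chloride-proton exchanger. Its log2 level was 7.72 and 7.90 with sgCTRL (129 and 118 reads) and 9.998 and 10.04 with sgKLHL14 (629 and 481 reads), a 4.62-fold rise (log2 difference 2.21, SE 0.0951, adjusted p = 2.83e-11). ERV3, an endogenous retrovirus envelope locus, rose from 7.77 and 7.80 to 9.54 and 9.47 (3.3-fold, adjusted p = 1.25e-08), although reads of related or overlapping elements could be misplaced there. In both genes, which were chosen for their large differences, the groups lay far apart compared with the distance between replicates. CX3CL1, the membrane-bound chemokine fractalkine, rose from 6.00 and 5.77 to 7.13 and 7.32 (difference 1.34, SE 0.177, adjusted p = 0.000123). CR2 (CD21), a complement receptor and part of the B cell co-receptor, rose from 6.29 and 6.02 to 7.33 and 7.26 (1.14, SE 0.182, adjusted p = 0.000825). SLAMF6, a self-binding receptor of lymphocytes, rose from 9.55 and 9.53 to 10.65 and 10.68 (1.12, SE 0.0874, adjusted p = 1.49e-07).

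The other leading gains were in genes of varied function. ELL3, an elongation factor for RNA polymerase II that is abundant in B cells, rose from 11.48 and 11.44 to 12.50 and 12.47 (2.04-fold, SE 0.0632, adjusted p = 6.14e-09). NINJ1, which mediates plasma membrane rupture in dying cells, rose from 7.45 and 7.48 to 8.35 and 8.79 (difference 1.11, adjusted p = 0.000111). VPREB3, which binds nascent immunoglobulin chains in the endoplasmic reticulum, rose from 7.03 and 7.36 to 8.45 and 8.43 (1.24, SE 0.261, adjusted p = 0.0107). In each of these 3 genes the groups did not overlap, which was a condition of their choice. PM20D1, an enzyme of N-acyl amino acid synthesis, rose by 1.20 (adjusted p = 0.000126) and TMPRSS6, a membrane serine protease, by 1.03 (adjusted p = 1.08e-06). SUSD3 rose by 1.10 (adjusted p = 0.00163) and SLC25A29, a mitochondrial carrier of basic amino acids, by 1.06 (adjusted p = 0.00262). PPAP2B, a lipid phosphatase, rose by 1.03 (adjusted p = 0.0157). CD27, a TNF receptor family member of memory B cells and plasma cells, rose from 7.22 and 7.54 to 8.26 and 8.52 (1.01, SE 0.187, adjusted p = 0.00327). The call for VPREB3 ended without sgCTRL replicate 1 or either sgKLHL14 replicate (adjusted p = 0.0869 to 0.13), that for PPAP2B without sgCTRL replicate 2 or either sgKLHL14 replicate (0.0856 to 0.259), that for CD27 without sgCTRL replicate 1 or sgKLHL14 replicate 2 (0.0788 to 0.082), and that for SLC25A29 without sgCTRL replicate 1 (0.0842), all in ibrutinib.

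**Figure D2:**
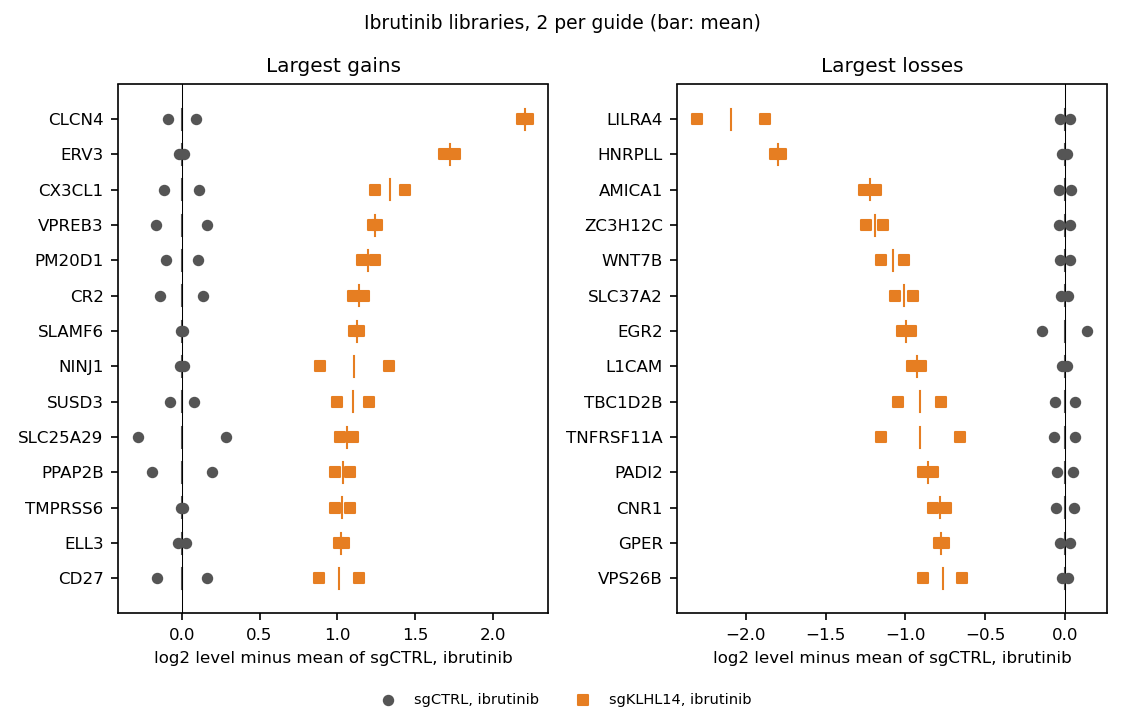
Log2 levels of the 14 genes with the largest gain (left) and the 14 with the largest loss (right) in the 4 ibrutinib libraries, each minus the mean of the sgCTRL libraries (x axis). Circles are sgCTRL, squares sgKLHL14 and bars group means. Genes with LOC or open reading frame names were left out, among them C1orf38 with a gain of 1.35. The groups do not overlap in any of these genes, a condition of their choice, and the replicates of NINJ1, TNFRSF11A and LILRA4 lie further apart than those of CLCN4, ERV3 or HNRPLL.

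The largest loss was that of LILRA4, an immunoglobulin-like receptor best known from plasmacytoid dendritic cells. Its log2 level was 6.98 and 7.04 with sgCTRL (77 and 65 reads) and 4.70 and 5.13 with sgKLHL14 (16 and 16 reads), a 4.27-fold fall (difference -2.09, SE 0.256, adjusted p = 5.97e-05). HNRPLL, now HNRNPLL, a splicing regulator that controls CD45 exon choice and acts in plasma cells, fell from 9.75 and 9.78 (527 and 435 reads) to 7.95 and 7.99 (152 and 116 reads). That was a 3.48-fold fall (difference -1.80, SE 0.0826, adjusted p = 4.53e-11). AMICA1, now JAML, a junctional adhesion molecule, fell from 9.08 and 9.001 to 7.78 and 7.86 (difference -1.22, SE 0.116, adjusted p = 2.35e-06). EGR2, an immediate-early transcription factor induced by antigen receptor signals, fell from 6.71 and 7.00 to 5.83 and 5.88 (-0.99, SE 0.148, adjusted p = 0.000397). In DMSO EGR2 stood at 9.26 and 9.04 with sgCTRL and 8.66 and 8.81 with sgKLHL14, so all 4 ibrutinib libraries lay below all 4 DMSO libraries and the lowest values were those with sgKLHL14.

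The other leading losses were likewise in genes of varied function. ZC3H12C, of the regnase family of RNA-degrading proteins, fell by 1.19 (adjusted p = 0.0014), and SLC37A2, a sugar phosphate exchanger, fell by 1.01 (adjusted p = 0.000233). TBC1D2B, a GTPase-activating protein of vesicle traffic, fell by 0.91 (adjusted p = 6.32e-05), and VPS26B, a retromer subunit, fell by 0.77 (adjusted p = 0.000469). PADI2, which converts arginine in proteins to citrulline, fell from 9.68 and 9.58 to 8.74 and 8.81 (adjusted p = 5.33e-05), and CNR1, the cannabinoid receptor of the nervous system, from 10.67 and 10.79 to 9.90 and 9.98 (adjusted p = 5.22e-05). Both were chosen as called genes without overlap between groups, and their replicates were closer to each other than the groups were. WNT7B, a secreted WNT ligand, fell by 1.08 (adjusted p = 0.00941), TNFRSF11A, the receptor RANK, fell by 0.91 (adjusted p = 0.00912), L1CAM, a cell adhesion molecule, fell by 0.93 (adjusted p = 0.0265) and GPER, an oestrogen-binding receptor, fell by 0.77 (adjusted p = 0.029). Without any 1 of the 4 ibrutinib libraries the calls for L1CAM and GPER ended (adjusted p = 0.101 to 0.257). The call for WNT7B ended without either sgCTRL replicate or sgKLHL14 replicate 1 (0.0853 to 0.113), and that for TNFRSF11A without replicate 1 of either guide (0.105 to 0.142).

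**Figure D3:**
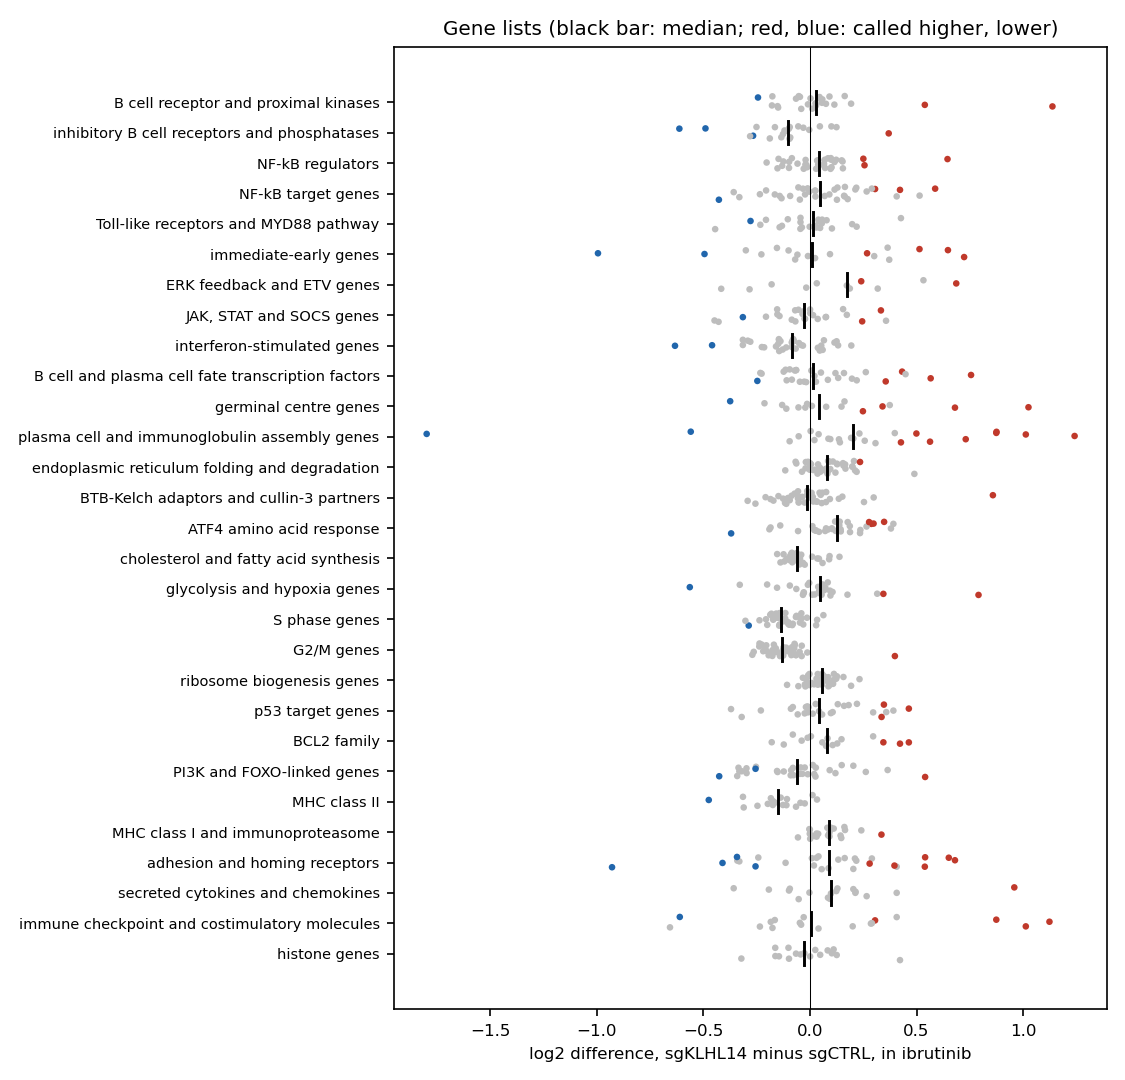
Log2 difference between sgKLHL14 and sgCTRL in ibrutinib (x axis) for the included members of 29 gene lists; each point is a gene, red where called higher, blue where called lower and grey otherwise, and black bars are medians. Most medians lie within 0.1 of 0, that of the plasma cell list is highest at 0.20, and the S phase and G2/M lists lie almost wholly below 0 with medians of -0.14 and -0.13.

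Several medians close to 0 carry no direction: those of the B cell receptor, NF-kB target, Toll-like receptor, immediate-early, fate transcription factor, germinal centre, checkpoint and histone lists took either sign when single ibrutinib libraries were left out. Among the 25 included genes of the B cell receptor and its proximal kinases, 2 were called higher and 1 lower, with a median of 0.03. CR2, described above, was among the genes called higher. PIK3AP1 (BCAP), an adaptor for PI3 kinase, fell by 0.24 (adjusted p = 0.0233). Of 22 inhibitory receptors and phosphatases, which bring SHP phosphatases to the receptor, 1 was called higher and 3 lower. Their median was -0.10, and 4 of the 22 differences were positive. FCRLA, an intracellular Fc receptor-like protein, rose from 13.17 and 13.17 to 13.53 and 13.55 (0.37, adjusted p = 0.000455). FCRL4, an inhibitory receptor of memory B cells, fell from 8.59 and 8.62 to 7.85 and 8.14 (-0.61, adjusted p = 0.00551), SIGLEC6 fell by 0.27 (adjusted p = 0.0233), and CD5, which dampens the receptor signal, fell by 0.49 (adjusted p = 0.0317). The calls ended for PIK3AP1 without any 1 of the ibrutinib libraries (adjusted p = 0.0982 to 0.411), for SIGLEC6 and CD5 without either sgCTRL replicate or sgKLHL14 replicate 1 (0.181 to 0.276), and for FCRL4 without sgCTRL replicate 2 or sgKLHL14 replicate 1 (0.0821 to 0.102). Without the variance trend that for FCRLA ended (0.055).

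Regulators of NF-kB and of the signalling complex upstream of it gave 3 calls higher and 0 lower of 36 genes, with a median of 0.04. NFKBID, a nuclear inhibitor of the IkB family, rose from 8.68 and 8.61 to 9.14 and 9.44 (difference 0.65, SE 0.0981, adjusted p = 0.000479). TNFAIP3 (A20), a ubiquitin-editing feedback inhibitor, rose from 11.02 and 10.99 to 11.28 and 11.24 (0.26, adjusted p = 0.0233), and NFKBIZ, an inducible nuclear IkB protein, rose by 0.25 (adjusted p = 0.0233). Among 36 NF-kB target genes 3 were called higher and 1 lower, with a median of 0.05. That median ran from -0.007 to 0.0985, with 0 to 3 calls higher and 0 to 1 lower, when each ibrutinib library was left out. BCL2L1 (BCL-XL), which blocks mitochondrial apoptosis, rose from 9.91 and 9.88 to 10.34 and 10.29 (0.42, adjusted p = 0.00279). CD40, a costimulatory receptor, rose by 0.31 (adjusted p = 0.0233), IER3 rose by 0.59 (adjusted p = 0.0306), and PTGER4, a prostaglandin receptor, fell by 0.43 (adjusted p = 0.00617). Toll-like receptors and the MYD88 pathway gave 0 calls higher and 1 lower of 24 by limma-trend, with a median of 0.01. The called gene was CD180, a relative of TLR4, which fell by 0.28 (adjusted p = 0.0147). Its guide difference in DMSO was larger, at -0.58 (adjusted p = 1.44e-05). In each of these lists most members did not pass the test. Calls ended for TNFAIP3, NFKBIZ and CD40 without any 1 of the ibrutinib libraries (adjusted p = 0.0805 to 0.445), for IER3 without sgCTRL replicate 2 or either sgKLHL14 replicate (0.102 to 0.454), for CD180 without either sgCTRL replicate or sgKLHL14 replicate 1 (0.125 to 0.268), for PTGER4 without either sgCTRL replicate or sgKLHL14 replicate 2 (0.0606 to 0.0909), and for BCL2L1 without sgCTRL replicate 2 (0.0614). Without the variance trend that for NFKBID ended (0.0767).

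Promoter sequence was read for 6 short motifs in the 250 bases before each start site, in RefSeq promoters of GRCh38.p14 matched to 8760 of the 10921 genes. The shortened NF-kB motif GGANTTTCC, on either strand, lay in 1.48% of the promoters of these genes and 1.47% of all 27305 promoters. It was found in 9 of 154 genes called higher (5.84%) and 2 of 73 called lower (2.74%). The windows below are shown because they belong to genes described here that were called and hold that motif. The motif is in capitals and appears as its reverse complement where it lies on the opposite strand.
CLCN4, chrX:10156725-10156782, + strand: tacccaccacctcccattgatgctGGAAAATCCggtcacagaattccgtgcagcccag
SLAMF6, chr1:160523438-160523496, - strand: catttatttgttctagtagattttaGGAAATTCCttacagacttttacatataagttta
XBP1, chr22:28800769-28800819, - strand: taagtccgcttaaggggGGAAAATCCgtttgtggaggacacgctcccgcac
PHLDA1, chr12:76031837-76031895, - strand: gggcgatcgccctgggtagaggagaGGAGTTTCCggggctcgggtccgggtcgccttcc
PPP1R15A, chr19:48872231-48872289, + strand: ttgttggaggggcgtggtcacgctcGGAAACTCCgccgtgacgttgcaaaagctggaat
CXCL10, chr4:76023640-76023698, - strand: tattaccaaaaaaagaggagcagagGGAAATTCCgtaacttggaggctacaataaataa
TNFAIP3, chr6:137867167-137867225, + strand: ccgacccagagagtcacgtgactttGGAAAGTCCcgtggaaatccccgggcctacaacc
NFKBIZ, chr3:101827743-101827801, + strand: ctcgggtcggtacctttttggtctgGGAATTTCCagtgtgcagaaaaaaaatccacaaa
OAS3, chr12:112938320-112938378, + strand: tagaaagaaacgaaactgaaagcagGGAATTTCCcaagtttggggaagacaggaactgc
The motif began 226 bases before the start site in CLCN4, 216 in SLAMF6, 233 in XBP1, 94 in PHLDA1, 165 in PPP1R15A, 176 in CXCL10, 67 in TNFAIP3, 222 in NFKBIZ and 129 in OAS3. OAS3 was lower with sgKLHL14 and the other genes shown were higher. The core GACGTGG, bound by XBP1 and ATF6, lay in 3.73% of the promoters of the included genes, in 10 of 154 genes called higher (6.49%) and in 2 of 73 called lower (2.74%). The AP-1 motif TGANTCA lay in 3.40%, in 4 called higher (2.60%) and 6 called lower (8.22%). The shortened interferon-stimulated response element AAANNGAAA lay in 6.30%, in 12 called higher (7.79%) and 8 called lower (10.96%). The E-box CACGTG lay in 9.52%, in 12 and 8 genes, and the EGR motif GCGTGGGCG in 1.11%, in 1 and 0 genes. Over all 27305 promoters the shares were 2.62% for GACGTGG, 6.60% for TGANTCA, 9.28% for AAANNGAAA, 6.49% for CACGTG and 0.710% for GCGTGGGCG. The motifs were searched on both strands, and a match describes the letters and not a bound site. No difference between these shares was tested.

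Immediate-early genes, which respond to receptor signals within minutes, gave 4 calls higher and 2 lower of 18, with a median of 0.01. JUN, a subunit of AP-1, rose from 8.39 and 8.43 to 9.17 and 8.94 (difference 0.65, adjusted p = 0.000461). PPP1R15A (GADD34), which restarts translation after stress, rose from 11.07 and 11.02 to 11.57 and 11.54 (0.51, adjusted p = 0.000118), and KLF10 rose by 0.72 (adjusted p = 0.000884). MYC, the growth regulator, rose by 0.27 (adjusted p = 0.0341). The 2 genes called lower were EGR2, given above, and ZFP36L1, which degrades AU-rich mRNA, with a fall of 0.49 (adjusted p = 0.000479). Members of this group thus moved in opposite directions. Feedback genes of ERK and the ETV factors gave 2 calls higher and 0 lower of 11, with a median of 0.17. PHLDA1 rose from 10.14 and 10.16 to 10.87 and 10.81 (0.69, SE 0.0695, adjusted p = 4.64e-06) and DUSP5, a nuclear ERK phosphatase, by 0.24 (adjusted p = 0.0394). JAK, STAT and SOCS genes gave 2 calls higher, the cytokine receptors IL21R (0.24, adjusted p = 0.0335) and IL4R (0.33, adjusted p = 0.0347), and 1 lower, JAK2 (-0.32, adjusted p = 0.0107), of 26, with a median of -0.03. Calls ended for MYC, DUSP5 and IL21R without any 1 of the ibrutinib libraries (adjusted p = 0.1 to 0.507), for JAK2 without either sgCTRL replicate or sgKLHL14 replicate 1 (0.0965 to 0.2), for IL4R without either sgCTRL replicate or sgKLHL14 replicate 2 (0.148 to 0.346), and for PPP1R15A without the variance trend (0.0572). The median of the ERK feedback list came down to 0.04 at the lowest when 1 ibrutinib library was left out.

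Transcription factors of B cell and plasma cell fate gave 4 calls higher and 1 lower of 30, with a median of 0.01. XBP1, which drives expansion of the secretory apparatus, rose from 10.71 and 10.74 to 11.51 and 11.44 (difference 0.76, SE 0.0704, adjusted p = 1.79e-06). TCF3 (E2A), a factor of early B cells and germinal centres, rose from 13.10 and 13.09 to 13.68 and 13.64 (0.57, adjusted p = 6.32e-05). IRF4, on which this lymphoma type depends, stood at 15.03 and 15.06 with sgCTRL and 15.46 and 15.50 with sgKLHL14 in ibrutinib (0.43, SE 0.0631, adjusted p = 0.00033). In DMSO IRF4 stood at 15.95 and 15.89 with sgCTRL and 15.999 and 16.09 with sgKLHL14, so the ibrutinib libraries with sgKLHL14 lay between those with sgCTRL and all DMSO libraries. POU2AF1 (OBF1), the octamer co-activator, rose from 12.82 and 12.82 to 13.20 and 13.15 (0.36, adjusted p = 0.00074). EBF1, a factor of B cell commitment, fell by 0.25 (adjusted p = 0.0443). Of 16 germinal centre genes 4 were called higher and 1 lower, with a median of 0.04. S1PR2, which confines B cells to the germinal centre, rose from 9.38 and 9.45 to 10.12 and 10.07 (0.68, adjusted p = 0.000267). BCL7A rose by 0.34 (adjusted p = 0.00167) and ELL3 as above, while LMO2 fell by 0.37 (adjusted p = 0.00398). Calls ended for EBF1 without any 1 of the ibrutinib libraries or of the sgCTRL libraries in DMSO (adjusted p = 0.0556 to 0.37), for BCL7A without sgCTRL replicate 2 (0.0596), for LMO2 without sgCTRL replicate 1 (0.143), and for TCF3, IRF4 and POU2AF1 without the variance trend (0.0521 to 0.0675).

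The list named for plasma cells and immunoglobulin assembly had the highest median, 0.20, against -0.004 for all included genes. Whether this reflects a plasma cell state was not tested. Of 25 genes 8 were called higher and 2 lower, and 21 differences were positive. SLAMF7, a receptor of plasma cells, rose from 9.23 and 9.23 to 10.13 and 10.07 (difference 0.87, SE 0.0738, adjusted p = 4.68e-07). TNFRSF13C, the receptor for the survival factor BAFF, rose from 9.29 and 9.33 to 10.11 and 10.27 (0.88, adjusted p = 8.72e-06). ELL2, which promotes the secreted form of immunoglobulin heavy chain mRNA, rose from 10.46 and 10.63 to 11.10 and 10.996 (0.50, adjusted p = 0.000321). The genes called lower were HNRPLL, with the values above, and IGJ, now JCHAIN, the chain that joins IgM and IgA polymers. IGJ fell from 10.10 and 10.02 to 9.51 and 9.496 (-0.56, adjusted p = 0.00829). The list median ran from 0.19 to 0.24 when each ibrutinib library was left out, with 4 to 6 calls higher and 1 lower. The call for IGJ ended without any 1 of these libraries (adjusted p = 0.0676 to 0.143), and that for ELL2 without the variance trend (0.066).

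The endoplasmic reticulum list covers folding and degradation of secretory proteins, part of which XBP1 controls. It gave 1 call higher and 0 lower of 40, with a median of 0.08, and 31 differences were positive. The called gene was UBE2J1, a ubiquitin-conjugating enzyme of the endoplasmic reticulum, which rose by 0.23 (adjusted p = 0.0464). Genes of the ATF4 amino acid response gave 4 calls higher and 1 lower of 35, with a median of 0.13, and 30 differences were positive. The tRNA synthetases AARS (0.35, adjusted p = 0.00115) and WARS (0.28, adjusted p = 0.00871), the serine synthesis enzyme PSAT1 (0.29, adjusted p = 0.0167) and the pseudokinase TRIB3 (0.30, adjusted p = 0.0449) rose. SLC7A11, the cystine transporter, fell by 0.37 (adjusted p = 0.0184). BTB-Kelch adaptors and cullin-3 partners gave 1 call higher, KLHL14 itself, and 0 lower of 41, with a median of -0.01. Calls ended for UBE2J1, WARS and SLC7A11 without any 1 of the ibrutinib libraries (adjusted p = 0.0546 to 0.422), for TRIB3 also without either sgCTRL library in DMSO (0.0589 to 0.52), for PSAT1 without either sgCTRL replicate or sgKLHL14 replicate 1 (0.136 to 0.215), and for AARS without sgCTRL replicate 1 (0.0685), so that 0 to 2 calls of the ATF4 list were made without single ibrutinib libraries.

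Interferon-stimulated genes gave 0 calls higher and 2 lower of 35 by limma-trend, with a median of -0.08 and 10 positive differences. XAF1, an interferon-induced promoter of apoptosis, fell from 9.83 and 9.80 to 9.21 and 9.16 (difference -0.63, SE 0.099, adjusted p = 0.000674). OAS3, which makes the activator of RNase L, fell from 10.58 and 10.53 to 9.99 and 10.20 (-0.46, adjusted p = 0.00398). Of 18 MHC class II genes 1 was called lower and 0 higher, with a median of -0.15 and 2 positive differences. In DMSO 7 of these genes were called lower and 0 higher, with a median of -0.26 and 4 positive differences. Whether this list differs between treatments was not tested. In ibrutinib HLA-DRB5 fell from 10.42 and 10.50 to 9.98 and 9.98 (-0.47, adjusted p = 0.000753), although near-identical HLA-DRB loci could share its reads. MHC class I and immunoproteasome genes gave 1 call higher and 0 lower of 22, with a median of 0.09. The called gene was NLRC5, the activator of MHC class I transcription, which rose by 0.34 (adjusted p = 0.00944). The call for OAS3 ended without replicate 1 of either guide (adjusted p = 0.082 to 0.102), that for NLRC5 without either sgCTRL replicate or sgKLHL14 replicate 2 (0.107 to 0.18), and those for OAS3 and HLA-DRB5 without the variance trend (0.059 to 0.091).

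Adhesion and homing receptors gave 6 calls higher and 4 lower of 27, with a median of 0.09. ITGAL, the alpha chain of LFA-1, rose from 12.49 and 12.57 to 13.12 and 13.24 (difference 0.65, SE 0.0629, adjusted p = 2.53e-06). ITGB1, the beta chain shared by many integrins, rose from 11.58 and 11.64 to 12.01 and 11.999 (0.40, adjusted p = 0.000559). CXCR4, the receptor for CXCL12, rose from 12.13 and 12.05 to 12.71 and 12.55 (0.54, adjusted p = 6.32e-05), and S1PR2 rose as above. The integrin chain ITGAX fell by 0.41 (adjusted p = 0.0384) and GPR183 (EBI2), a receptor for oxysterols that guides B cells in follicles, fell by 0.34 (adjusted p = 0.0109), beside L1CAM. The guide difference of ITGAX in DMSO was larger, at -0.96 (limma-trend, adjusted p = 1.69e-05). Of 17 secreted cytokines and chemokines 1 was called higher and 0 lower, with a median of 0.10. CXCL10, a chemokine for CXCR3-bearing T cells, rose from 5.71 and 5.02 to 6.43 and 6.22 on 32, 16, 53 and 34 reads (0.96, SE 0.23, adjusted p = 0.0286). Without sgCTRL replicate 2 its difference was 0.61 (adjusted p = 0.445). Checkpoint and costimulatory molecules gave 4 calls higher, SLAMF6, SLAMF7, CD27 and CD40, and 1 lower of 18, with a median of 0.01. The gene called lower was LGALS9 (galectin-9), which fell from 9.72 and 9.64 to 9.01 and 9.12 (-0.61, adjusted p = 0.000884). Calls ended for ITGAX without any 1 of the ibrutinib libraries or of the sgCTRL libraries in DMSO (adjusted p = 0.0645 to 0.343), for L1CAM and CD40 without any 1 of the ibrutinib libraries (0.0898 to 0.273), for CXCL10 also without either sgKLHL14 replicate (0.074 to 0.445), for GPR183 without sgCTRL replicate 1 or either sgKLHL14 replicate (0.0588 to 0.23), for CD27 without sgCTRL replicate 1 or sgKLHL14 replicate 2 (0.0788 to 0.082), and for ITGB1 and CXCR4 without the variance trend (0.0544 to 0.0628).

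Cell cycle genes had small differences of mostly the same sign and few calls. Of 39 S phase genes 0 were called higher and 1 lower, while 36 differences were negative and the median was -0.14. Of 40 G2/M genes 1 was called higher and 0 lower, while 39 differences were negative and the median was -0.13. The list median of the level was 10.72 and 10.81 with sgCTRL and 10.65 and 10.63 with sgKLHL14 for the S phase genes. There sgCTRL replicate 1 lay closer to sgKLHL14 replicate 1 than to the other sgCTRL library. For the G2/M genes the list median was 11.61 and 11.59 with sgCTRL and 11.59 and 11.46 with sgKLHL14, so 1 sgKLHL14 library lay close to the sgCTRL libraries. Without each ibrutinib library the medians ran from -0.14 to -0.10 for S phase and from -0.14 to -0.12 for G2/M. In DMSO 36 of the 39 S phase differences were positive with a median of 0.08, and 26 of the 40 G2/M differences were positive with a median of 0.03. Whether these lists differ between treatments was not tested. GINS1, a subunit of the replicative helicase, was the S phase gene called lower (-0.29, adjusted p = 0.0364), and without any 1 of the ibrutinib libraries that call ended (adjusted p = 0.0853 to 0.289). CDC25B, a phosphatase that starts mitosis, rose from 11.04 and 11.03 to 11.40 and 11.47 (0.40, adjusted p = 0.000884), against the sign of the rest of its list, and its call ended without the variance trend (0.0521).

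Survival and growth lists gave scattered calls. Of 27 p53 target genes 3 were called higher and 0 lower, with a median of 0.04. PMAIP1 (NOXA), which neutralises MCL1, rose by 0.46 (adjusted p = 0.00161), CDKN1A (p21), an inhibitor of cyclin-dependent kinases, by 0.35 (adjusted p = 0.00241), and AEN, an apoptotic nuclease, by 0.34 (adjusted p = 0.00707). The BCL2 family gave 3 calls higher and 0 lower of 16, with a median of 0.08. They were PMAIP1 and BNIP3 (0.34, adjusted p = 0.0382), which promote death, and BCL2L1 (0.42, adjusted p = 0.00279), which prevents it. PI3K and FOXO-linked genes gave 1 call higher, CXCR4, and 2 lower of 32, with a median of -0.06. Among the genes called lower was CCNG2, an atypical cyclin, which fell by 0.43 (adjusted p = 0.00832). Glycolysis and hypoxia genes gave 2 calls higher and 1 lower of 32, with a median of 0.05, among them ENO2, a neuronal enolase, with a rise of 0.79 (adjusted p = 0.000154), BNIP3, and P4HA2, a collagen hydroxylase, with a fall of 0.56 (adjusted p = 0.0378). Ribosome biogenesis (41 genes, median 0.05, 30 positive), cholesterol and fatty acid synthesis (29 genes, median -0.06, 7 positive) and histones (17 genes, median -0.03, 8 positive) had 0 calls by limma-trend. Calls ended for AEN, BNIP3 and P4HA2 without any 1 of the ibrutinib libraries (adjusted p = 0.0529 to 0.4), for PMAIP1 without sgCTRL replicate 1 (0.0835), for CDKN1A without sgCTRL replicate 2 or sgKLHL14 replicate 1 (0.0572 to 0.0663), for BCL2L1 without sgCTRL replicate 2 (0.0614), and for CCNG2 without either sgCTRL replicate or sgKLHL14 replicate 2 (0.0893 to 0.115).

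The guide difference was also measured in DMSO, in libraries that are not shared with the ibrutinib comparison. There 201 of the 10921 genes were called, 95 higher and 106 lower, against 1.64% of all genes fitted. In all, 115 genes were called under both treatments, each in the same direction, which is 41.2% of the calls in ibrutinib and 57.2% of those in DMSO. Both contrasts used the same estimate of the spread of a gene, taken over all 8 libraries, so these calls are not independent. The labels give a single guide name for all sgKLHL14 libraries and another for all sgCTRL libraries. Both treatments therefore compare the same pair of guides, and no further guide was measured. Of the 279 genes called in ibrutinib, 268 had the same sign in DMSO (96.1%, against 63.3% of all included genes) and 11 the opposite sign. Across genes the 2 differences correlated at r = 0.474 over the 10921 genes, which are not independent replicates. The median size over the 279 genes was 0.46 in ibrutinib, where they were selected, and 0.28 in DMSO. ERV3 differed by 1.36 in DMSO (adjusted p = 7.08e-07), SLAMF6 by 1.26 (7.61e-08), AMICA1 by -1.24 (3.35e-06) and LILRA4 by -1.53 (0.00254). The differences in ibrutinib were 1.72 for ERV3, 1.12 for SLAMF6, -1.22 for AMICA1 and -2.09 for LILRA4. VPREB3 differed by 2.70 in DMSO (adjusted p = 4.88e-06), on few reads with sgCTRL. Its log2 levels there were 4.46 and 3.39 with sgCTRL (11 and 9 reads) and 6.65 and 6.59 with sgKLHL14 (86 and 79 reads). Without single DMSO libraries the number of genes called in DMSO ran from 59, without sgCTRL replicate 1, to 525, without sgKLHL14 replicate 2, so the overlap of calls rests on which DMSO libraries were used.

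**Figure D4:**
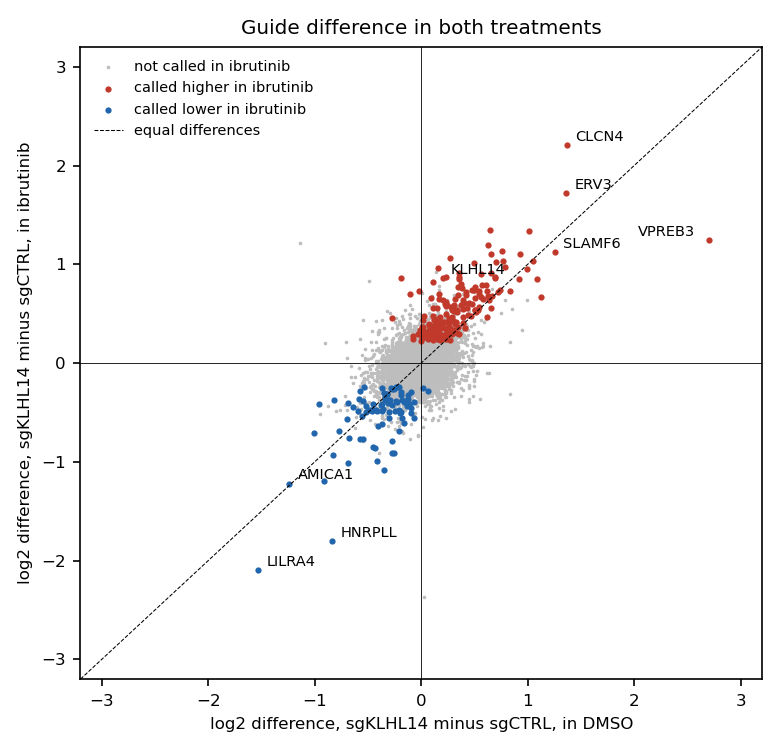
Each point is 1 of 10921 genes, with the log2 difference between sgKLHL14 and sgCTRL in DMSO (x axis) and in ibrutinib (y axis); red and blue points were called higher and lower in ibrutinib, and the dashed line marks equal differences. Of the 279 coloured points 268 have the same sign on both axes. VPREB3 lies below the line, and CLCN4 and HNRPLL lie further from 0 in ibrutinib than in DMSO.

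The difference between the guide effects in ibrutinib and in DMSO was tested directly and passed for 3 genes, 0.0239% of all genes fitted, while 625 of the included genes had an unadjusted p under 0.05. HNRPLL stood at 10.64 and 10.71 with sgCTRL and 9.81 and 9.86 with sgKLHL14 in DMSO, a difference of -0.84, against -1.80 in ibrutinib. The difference between these effects was -0.96 (SE 0.117, adjusted p = 0.00137). KLHL14 had 0.20 in DMSO and 0.86 in ibrutinib, a difference of 0.66 (SE 0.0846, adjusted p = 0.00164). CLCN4 stood at 8.82 and 8.84 with sgCTRL and 10.13 and 10.26 with sgKLHL14 in DMSO, an effect of 1.37, against 2.21 in ibrutinib. The difference was 0.84 (SE 0.134, adjusted p = 0.0235). In each of these genes the guide effect was larger under ibrutinib and had the same sign in DMSO. Next by p were C1orf38, now THEMIS2, an adaptor of B cell activation, and SLAMF7, neither of which passed this test of the difference. In the ibrutinib comparison itself C1orf38 was called higher by limma-trend (difference 1.35, SE 0.093, adjusted p = 2.51e-08). Its gain exceeded that of CX3CL1, and only its open reading frame name kept it out of the leading gains above. C1orf38 stood at 8.73 and 8.71 with sgCTRL and 10.09 and 10.05 with sgKLHL14 in ibrutinib, and at 8.70 and 8.80 with sgCTRL and 9.48 and 9.31 with sgKLHL14 in DMSO. Its effects differed by 0.71 (SE 0.131, adjusted p = 0.105), and those of SLAMF7 by 0.52 (SE 0.104, adjusted p = 0.188). The call for CLCN4 ended without either sgCTRL library in DMSO, sgKLHL14 replicate 1 in DMSO, sgCTRL replicate 1 in ibrutinib or either sgKLHL14 library in ibrutinib, where the adjusted p ran from 0.0838 to 0.254. It also ended with voom weights (0.074) and with thinned reads (0.0626).

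**Figure D5:**
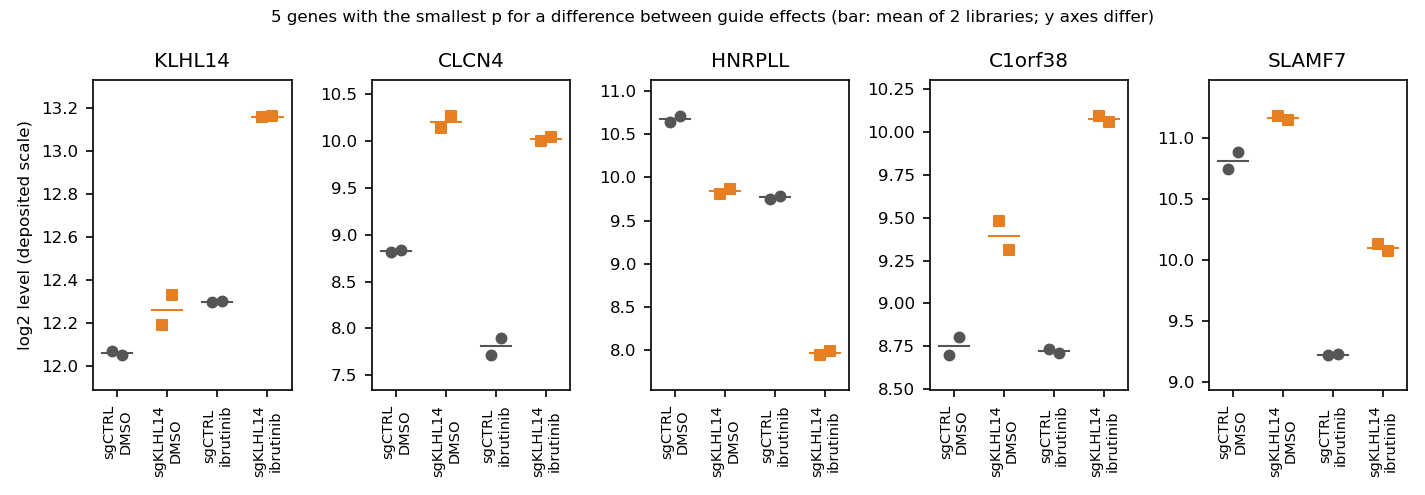
Log2 level (y axis, deposited scale, a range of its own per gene) in each of the 8 libraries for the 5 genes with the smallest p for a difference between guide effects; points are libraries, circles sgCTRL and squares sgKLHL14, and bars are means of 2. The step from sgCTRL to sgKLHL14 is larger in ibrutinib than in DMSO in all 5, and the test passed for KLHL14, CLCN4 and HNRPLL.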

How the data were processed

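RNA of 8 libraries (4 groups of 2) was sequenced from poly(A)-selected stranded libraries, per the labels' protocols. Reads were processed with bcl2fastq, STAR and HTSeq on hg19, per the submitters' processing notes. Versions, annotation and strand use were not given in the sources used here, and reads of overlapping and antisense genes cannot be told apart. The deposited table, made by the authors, holds log2 values of scaled reads per gene. Its row of total reads per library stayed out of every test. Within 6e-04 on the log2 scale, 100% of the values were whole numbers of reads times a factor of the library, 1 read being worth 1.16 to 2.19. The number of columns of other samples was 0. Replicates differed by more than sampling noise (chi-square per degree of freedom 2.36 to 9.23), so none was counted as a duplicate.

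Genes with a mean of at least 4.2 (12531) were fitted on the deposited log2 scale, without a pseudocount, by limma-trend (limma 3.58.1, R 4.3.3), a linear model with a mean per group whose prior variance depends on the level (residual degrees of freedom 4, prior 14.93). The contrasts tested were sgKLHL14 against sgCTRL in ibrutinib, the same in DMSO, and their difference. P-values were adjusted by the Benjamini-Hochberg method over all fitted genes and called under 0.05. The fit was run on simulated reads with the same spread setting for every gene and library. Replicate noise differed between the real groups, so that run cannot show how the calls hold here. Members of the comparison and the 29 gene lists were chosen with earlier results of these data known. Named genes are KLHL14, BTK, the 14 largest gains and 14 largest losses among calls without overlap between groups (no LOC or open reading frame names), up to 4 called genes per list with the smallest p, all members called in a direction where these number at most 5, and the 5 smallest p for the difference between guide effects. Lists are described by counts and medians without a test. A few called genes enter the counts without being named. Symbols are those of the table, and 3449 of its genes carried no gene ID. KLHL14 had no promoter entry among the RefSeq sequences. Alternatives were other filters, a pseudocount, priors, scalings, voom, thinning, fewer libraries and a replicate block.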

Additional observations from a re-analysis of the deposited data

Results flagged for a closer look

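A set of 3 genes had guide effects that differed between ibrutinib and DMSO by a direct test of the difference (limma-trend, Benjamini-Hochberg adjustment). For HNRPLL the effect in ibrutinib minus that in DMSO was -0.96 on the log2 scale (SE 0.117, adjusted p = 0.00137). For KLHL14 it was 0.66 (SE 0.0846, adjusted p = 0.00164), and for CLCN4 it was 0.84 (SE 0.134, adjusted p = 0.0235). The call for CLCN4 ended with voom weights (adjusted p = 0.074), with thinned reads (0.0626) and without any 1 of 6 libraries (0.0838 to 0.254). KLHL14 is the gene the guide was aimed at, and its mRNA was higher in all libraries labelled sgKLHL14 than in those labelled sgCTRL of the same treatment. HNRPLL was lower in both sgKLHL14 libraries of each treatment, and CLCN4 higher. Groups of 2 libraries are too small for a test of single outlying libraries.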

How the results depend on the processing

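The 279 calls under ibrutinib (189 higher, 90 lower) changed most with the model of the spread and with single libraries. With every expressed gene fitted they were 137 (98 higher, 39 lower), and without the variance trend 73 (47 higher, 26 lower). An adjusted p under 0.01 left 154 and a log2 difference of at least 1 left 21. Leaving out each library in turn gave 120 to 345 in all, 87 to 215 higher and 32 to 130 lower. With only the ibrutinib libraries in the fit 146 genes were called lower. With the replicate number as a block 405 were called, 161 of them lower, and for DMSO 358 in place of 201. The numbers were not taken to pair the samples, since replicate deviations correlated at -0.0552 to 0.122 between groups and at 0.0231 between the ibrutinib groups. Without the filter and without the variance trend 46 and 20 genes were called in DMSO, and leaving out each library gave 59 to 525. The difference between guide effects called 3 genes, 5 with the replicate block, and 0 by limma without the filter or without the trend, where 591 and 527 genes had an unadjusted p under 0.05. In those fits the adjusted p was 0.0609 and 0.141 for HNRPLL and 0.21 and 0.488 for KLHL14, and 0.568 and 0.488 for CLCN4. Leaving out each library gave 2 to 4 such calls. Quantile scaling (277 calls), median scaling (271), a robust prior (306), a pseudocount of 16 (282), voom weights on recovered reads (256) and reads thinned to the shallowest library (237) moved the total less. No called gene changed sign under any of these settings. Of 94 named genes called, 34 kept the call in all 19 settings, among them KLHL14, CLCN4, ERV3, CR2, SLAMF6, ELL3, HNRPLL, LILRA4, AMICA1, EGR2, JUN, PHLDA1, XBP1, S1PR2, SLAMF7, TNFRSF13C, ITGAL, XAF1 and LGALS9. In these 94 genes 36 calls ended without the filter and 56 without the trend. With voom weights 8 ended and with thinned reads 15. With only the ibrutinib libraries in the fit 4 ended, those for IER3, CXCL10, TRIB3 and ITGAX. The precision is limited by 2 libraries per group and by depth, 12333876 reads in the shallowest library.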
